A study of Mus musculus with 10 samples.

Results

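The 10 genes described here serve MHC class I antigen presentation. They are the heavy chain genes H2-Q10, H2-K1, H2-D1, H2-Q4, H2-Q6, H2-Q7 and H2-T23, the light chain gene B2m, the peptide transporter gene Tap1 and the tapasin gene Tapbp. They were chosen by gene symbol, 10 of 40501 gene identifiers in the deposited count table, around H2-Q10, which had passed the threshold of the genotype comparison in earlier work on these libraries. All 10 passed the filter on low counts that left 14913 genes. RNA-seq was done on inguinal white fat, a depot under the skin of the groin, from 5 PexRAP-AKO mice (Cre-positive, replicates 1, 2, 3, 5 and 6) and 5 Control mice (Cre-negative, replicates 2, 3, 5, 7 and 8). All were male C57/BL6J mice on a chow diet, and the gene deleted in adipose tissue of PexRAP-AKO mice encodes PexRAP, a reductase of ether lipid synthesis also named ADHAPR. The labels give 8 weeks as the time on chow and also as the age, which leaves the age at harvest unsettled. The sources used here name neither the Cre driver nor the floxed allele.

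A class I molecule is a heavy chain paired with beta-2 microglobulin around a short peptide. Proteasomes cut the peptides, the Tap1 and Tap2 transporter moves them into the endoplasmic reticulum, and tapasin helps to load them. H2-K1 and H2-D1 encode the classical chains that nearly all nucleated cells show to CD8 T cells, and interferons raise their transcription. H2-Q4, H2-Q6, H2-Q7, H2-Q10 and H2-T23 are nonclassical chains, of which H2-T23 encodes Qa-1, a ligand of NK cell receptors, and H2-Q6 and H2-Q7 belong to the Qa-2 genes, whose products are anchored by a lipid tail. H2-Q10 encodes a chain without a membrane anchor that is secreted, known chiefly as a serum protein made by the liver.

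The promoters of H2-Q10, of the classical gene H2-K1 and of the neighbouring Q-region gene H2-Q7 are printed to show where H2-Q10 differs in letters from its relatives. Each window runs from 250 bases before to 50 bases after the annotated start, from RefSeq on GRCm38.p6, read 5′ to 3′ on the gene's strand. Capitals mark matches, on either strand, to 4 motifs known from class I promoters: the kappa B site (GGG, any 2 bases, then TTCCC), the interferon response element core GAANNGAAA (seen here from the opposite strand), the X2 box core TGACGC and the CCAAT box.
H2-Q10, chr17:35469839-35470138, plus strand: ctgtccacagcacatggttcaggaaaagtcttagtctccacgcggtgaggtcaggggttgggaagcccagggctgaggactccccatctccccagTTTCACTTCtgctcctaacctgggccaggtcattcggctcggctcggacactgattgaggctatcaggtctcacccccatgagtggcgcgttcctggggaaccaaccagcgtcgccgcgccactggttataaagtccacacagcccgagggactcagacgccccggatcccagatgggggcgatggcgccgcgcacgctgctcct
H2-K1, chr17:34000298-34000597, minus strand: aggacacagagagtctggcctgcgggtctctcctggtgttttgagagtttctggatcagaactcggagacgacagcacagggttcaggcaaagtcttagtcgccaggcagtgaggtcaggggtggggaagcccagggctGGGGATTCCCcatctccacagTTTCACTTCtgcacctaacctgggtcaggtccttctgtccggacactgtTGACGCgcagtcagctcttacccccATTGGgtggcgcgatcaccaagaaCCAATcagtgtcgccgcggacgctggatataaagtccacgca
H2-Q7, chr17:35438905-35439204, plus strand: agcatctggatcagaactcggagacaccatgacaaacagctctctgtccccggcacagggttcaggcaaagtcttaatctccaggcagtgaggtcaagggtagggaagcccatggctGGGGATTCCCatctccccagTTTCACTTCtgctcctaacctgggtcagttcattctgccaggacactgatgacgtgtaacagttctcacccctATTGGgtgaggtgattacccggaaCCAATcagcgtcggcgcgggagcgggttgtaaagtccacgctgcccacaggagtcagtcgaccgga

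The interferon response element core stood in 6 of the 10 genes, H2-Q10, H2-K1, H2-D1, H2-Q4, H2-Q6 and H2-Q7, against 7.52% of 32851 RefSeq windows. In H2-Q10 it lay at -155 to -147 from the start and was the only one of the 4 motifs present. The kappa B letters stood in 5 genes, H2-K1, H2-D1, H2-Q4, H2-Q6 and H2-Q7, against 1.75% of windows. In H2-K1 they lay at -111 to -102 and in H2-Q7 at -133 to -124, in both cases just upstream of the interferon core. CCAAT stood in all of the 10 genes except H2-Q10, against 37.4% of windows. The X2 core stood in H2-K1, H2-D1 and H2-Q4, in H2-Q4 after the start, against 7.40% of windows. Over the aligned bases the H2-Q10 window was 87.3% identical to that of H2-D1, 84.8% to that of H2-K1 and 80.8% to that of H2-Q7, while the windows of H2-Q6 and H2-Q7 were 97.7% identical. RefSeq gives H2-K1 a further window, chr17:34000284-34000583, in which the same motifs stand and the kappa B letters lie at -125 to -116. These are letter matches, and they do not show binding. Letters with another spacing, such as GAAACTGAAA in the B2m window, were not counted. A missing match therefore does not show that a site is absent.

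**Figure D1:**
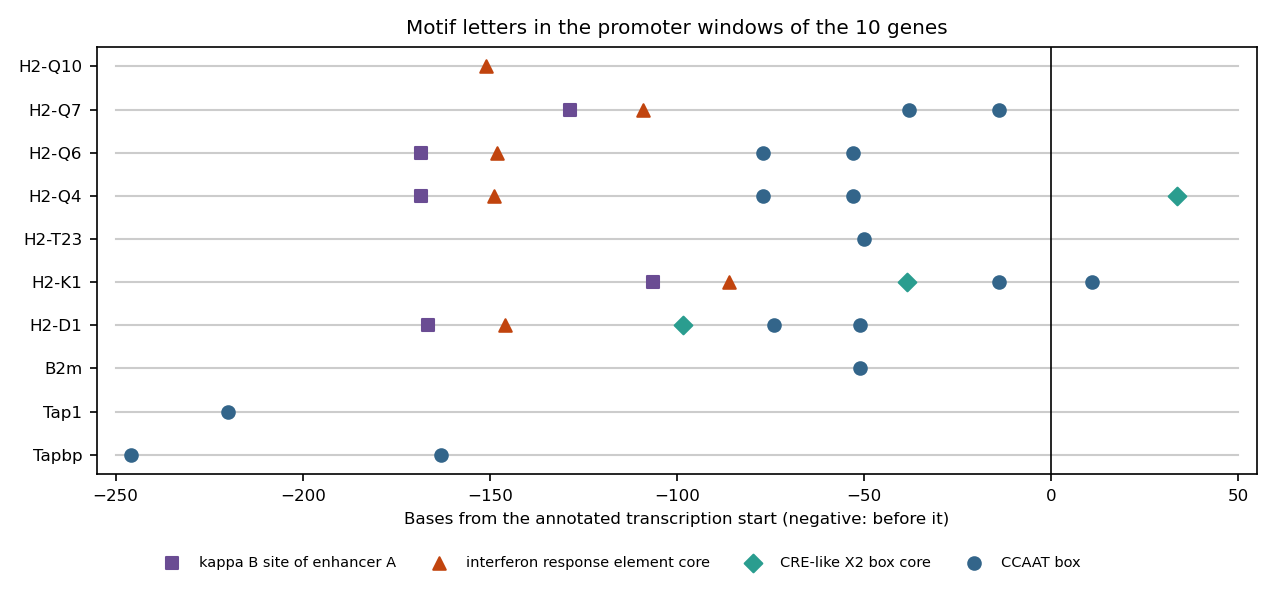
Positions of the 4 motifs in the promoter window of each of the 10 genes, in bases from the annotated start (x axis), 1 gene a row, with a marker for each match on either strand. H2-Q10 carries 1 match, the interferon response element core, while H2-K1, H2-D1, H2-Q4, H2-Q6 and H2-Q7 also carry the kappa B letters and CCAAT.

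Library totals ran from 11274865 to 19881168 counts. Their log2 values were compared between the groups by an exact two-sided permutation test (p = 0.627). Dhrs7b, the gene for PexRAP, stood at 17.9 to 22.8 CPM (counts scaled to the library size) in PexRAP-AKO libraries and at 61.2 to 95.8 CPM in Control libraries. Adipocyte markers were abundant in every library, with Adipoq at 2351 ± 446 CPM in PexRAP-AKO and 2657 ± 291 CPM in Control (SD, n = 5 each). Of the 8 adipocyte markers tested, 2 had a positive and 6 a negative log2 fold change, and 0 had an unadjusted edgeR p under 0.05. Their summed level was 21270 to 30710 CPM in PexRAP-AKO and 20820 to 27050 CPM in Control, which overlapped. In bulk tissue, fewer cells of a type and less RNA per cell cannot be told apart. PexRAP-AKO replicate 6 and Control replicate 8 held the most B cell transcripts, and PexRAP-AKO replicate 3 the most macrophage transcripts.

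H2-Q10 (ENSMUSG00000067235, chromosome 17, 35470089 to 35474563, plus strand, GRCm38) was the one gene of the 10 whose groups did not overlap. It stood at 125.96, 169.2, 128.3, 145.8 and 123.4 CPM in PexRAP-AKO replicates 1, 2, 3, 5 and 6, and at 61.2, 87.2, 85.4, 62.1 and 73.3 CPM in Control replicates 2, 3, 5, 7 and 8. The lowest PexRAP-AKO library stood above the highest Control library. The means were 138.5 ± 19.3 CPM in PexRAP-AKO and 73.8 ± 12.4 CPM in Control (SD, n = 5 each), which is 1.87-fold, a log2 fold change of 0.91 (SE 0.12). In edgeR's quasi-likelihood test with Benjamini-Hochberg adjustment over all genes its adjusted p was 0.0173, a value shared by 6 genes, and its unadjusted p ranked 9 among all genes.

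These are the values for which H2-Q10 was chosen, so they are given as a description and support nothing further. Of all 14913 genes, 15 passed the threshold of 0.05 (0.101%), 14 of them higher (0.0939%) and 1 lower in PexRAP-AKO (0.00671%), and 310 were higher in PexRAP-AKO without overlap (2.08%). The last gene inside the threshold was Mal2 (adjusted p = 0.0345) and the first outside it G6pdx (adjusted p = 0.0510). The call of H2-Q10 rested on several single libraries. Leaving out PexRAP-AKO replicate 5 gave an edgeR adjusted p of 0.0721. Leaving out a Control library gave 0.0655 for replicate 2, 0.0820 for replicate 7 and 0.0771 for replicate 8. The log2 fold change ran from 0.82 to 0.97 over the leave-one-out fits. It was 0.94 without both B cell-rich libraries, PexRAP-AKO replicate 6 and Control replicate 8 (edgeR adjusted p = 0.104).

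**Figure D2:**
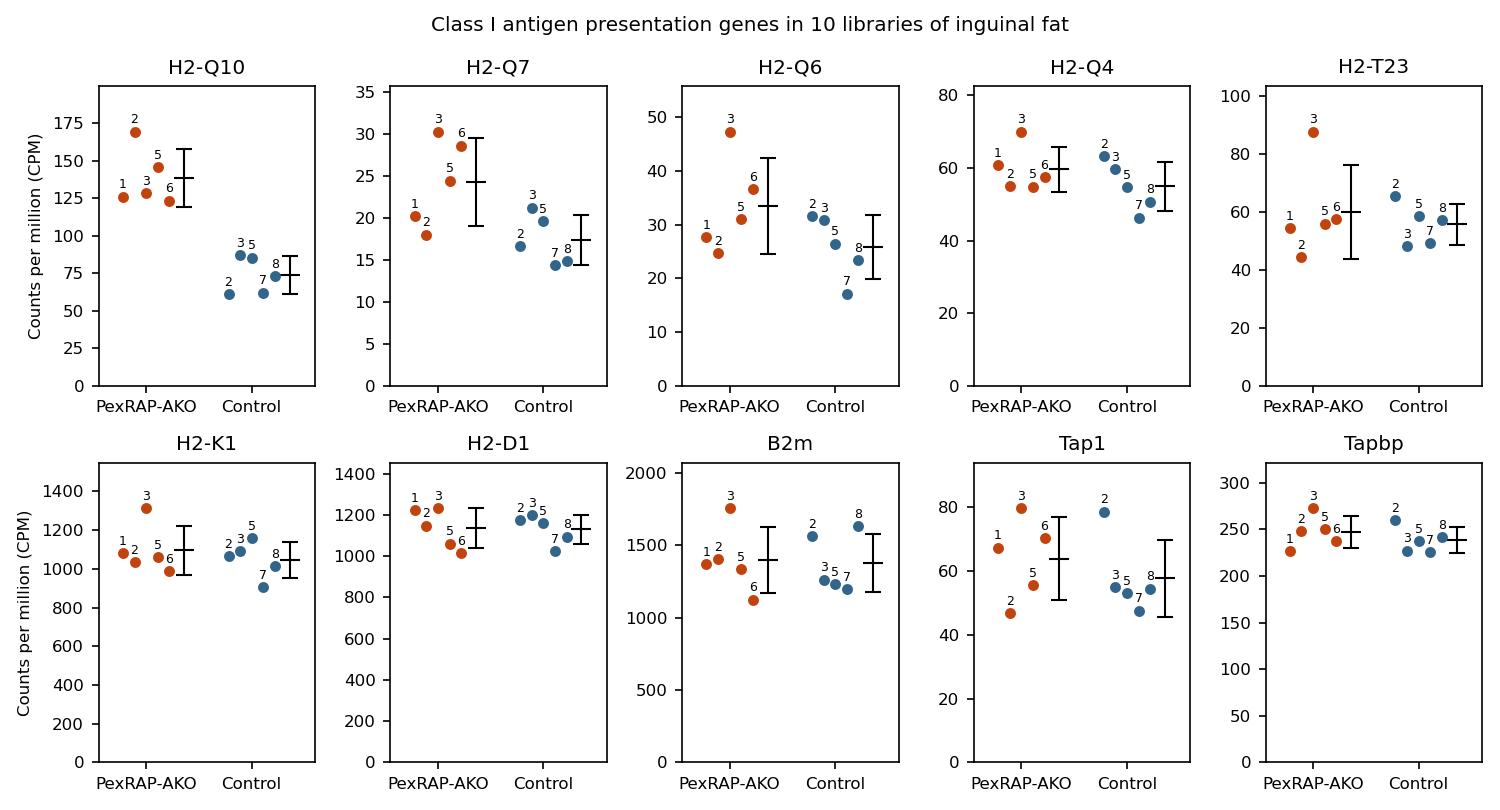
Level of each of the 10 genes in CPM (y axis, from 0) in the PexRAP-AKO libraries (left, orange) and the Control libraries (right, blue). Points are libraries labelled by replicate number and black bars are the mean and SD (n = 5). H2-Q10 parts the groups, at 123.4 to 169.2 CPM in PexRAP-AKO and 61.2 to 87.2 CPM in Control, and PexRAP-AKO replicate 3 is the highest library for the other 9 genes.

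Class I genes resemble each other, which bears on how reads are assigned. Over the aligned coding bases H2-Q10 was 89.6% identical to H2-D1, 88.1% to H2-K1, 87.7% to H2-Q7 and 82.2% to H2-T23. Of the 50-base stretches in annotated coding transcripts of H2-Q10, 7.73% also occurred in another gene, most often in H2-Q1, and of its 100-base stretches 1.93% did. H2-Q1 was at or near 0, at 0.0141 ± 0.0316 CPM in PexRAP-AKO and 0.0270 ± 0.0390 CPM in Control. None of the 100-base stretches of the other 6 heavy chain genes occurred in H2-Q10. Of their 50-base stretches, between 1.61% (H2-Q4) and 2.95% (H2-D1) did, with 2.04% for H2-K1. H2-Q6 and H2-Q7 were less separable, being 95.4% identical to each other, with 32.0% and 34.9% of their 50-base stretches found in another gene. The sources used here give neither the read length nor the handling of reads that map to several genes, so the split of reads between H2-Q6 and H2-Q7 is uncertain. How far reads of the more abundant H2-D1 and H2-K1 entered the H2-Q10 count was not tested.

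Neither classical chain passed the test, and the groups overlapped for both. H2-K1 (chromosome 17, 33996017 to 34000347) stood at 1081, 1035, 1313, 1060 and 989.7 CPM in PexRAP-AKO replicates 1, 2, 3, 5 and 6, and at 1066, 1090, 1158, 905.1 and 1015 CPM in Control replicates 2, 3, 5, 7 and 8. H2-D1 (chromosome 17, 35262730 to 35267499) stood at 1224, 1148, 1232, 1060 and 1014 CPM in PexRAP-AKO, and at 1175, 1199, 1159, 1023 and 1094 CPM in Control, in the same order of replicates. PexRAP-AKO replicate 3 was the highest library for both genes. The log2 fold change of H2-K1 was 0.07 (SE 0.10, edgeR adjusted p = 0.801), with a 95% interval (normal, from the SE) of -0.13 to 0.26. That of H2-D1 was 0.01 (SE 0.09, edgeR adjusted p = 0.978), with an interval of -0.16 to 0.18.

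H2-Q7 (chromosome 17, 35439155 to 35443773), whose start lies at -30934 bases from that of H2-Q10, had the largest difference among the other 9 genes. It stood at 20.2, 18.01, 30.3, 24.4 and 28.6 CPM in PexRAP-AKO replicates 1, 2, 3, 5 and 6, and at 16.7, 21.2, 19.6, 14.4 and 14.9 CPM in Control replicates 2, 3, 5, 7 and 8. All 5 PexRAP-AKO libraries stood above the Control mean and 3 above the highest Control library, so the groups overlapped. The log2 fold change was 0.48 (SE 0.16), and it did not pass over all genes (edgeR adjusted p = 0.206, unadjusted p = 0.0113). An unadjusted p under 0.05 was reached by 15.5% of all genes tested.

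H2-Q6 (chromosome 17, 35424850 to 35430055), the near-copy of H2-Q7, stood at 33.4 ± 8.91 CPM in PexRAP-AKO and 25.9 ± 5.91 CPM in Control (SD, n = 5 each; log2 fold change 0.37, SE 0.20, edgeR adjusted p = 0.422). Its PexRAP-AKO libraries ran from 24.6 to 47.3 CPM and its Control libraries from 17.2 to 31.6 CPM. The log2 fold change of H2-Q6 was 0.21 without PexRAP-AKO replicate 3. H2-Q4 (chromosome 17, 35379617 to 35385290), another nonclassical Q-region chain, ran from 54.8 to 69.9 CPM in PexRAP-AKO and from 46.3 to 63.2 CPM in Control, with a log2 fold change of 0.12 (SE 0.09, edgeR adjusted p = 0.586). The Qa-1 gene H2-T23 (chromosome 17, 36029773 to 36032855) stood at 54.4, 44.3, 87.6, 55.9 and 57.6 CPM in PexRAP-AKO replicates 1, 2, 3, 5 and 6, and at 65.3, 48.2, 58.6, 49.1 and 57.1 CPM in Control replicates 2, 3, 5, 7 and 8. Replicate 3 of PexRAP-AKO was high and replicate 2 of PexRAP-AKO low, and the groups overlapped. The log2 fold change of H2-T23 was 0.11 (SE 0.16, edgeR adjusted p = 0.802), and without PexRAP-AKO replicate 3 it was -0.07.

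The light chain and the loading genes did not pass the test either. B2m (chromosome 2, 122147686 to 122153083), the only one of the 10 outside chromosome 17, stood at 1368, 1405, 1755, 1334 and 1124 CPM in PexRAP-AKO replicates 1, 2, 3, 5 and 6, and at 1562, 1262, 1232, 1198 and 1631 CPM in Control replicates 2, 3, 5, 7 and 8. The lowest and the highest of the 10 B2m values were both in PexRAP-AKO. Its log2 fold change was 0.02 (SE 0.13, edgeR adjusted p = 0.956, interval -0.24 to 0.28). Tap1 (chromosome 17, 34187553 to 34197225), a subunit of the peptide transporter, ran from 46.8 to 79.8 CPM in PexRAP-AKO and from 47.6 to 78.7 CPM in Control (log2 fold change 0.15, SE 0.16, edgeR adjusted p = 0.711). Tapbp (chromosome 17, 33915899 to 33929292), which encodes tapasin, varied least, from 226.3 to 272.6 CPM in PexRAP-AKO and from 225.2 to 259.8 CPM in Control. Its log2 fold change was 0.05 (SE 0.07, edgeR adjusted p = 0.760).

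**Figure D3:**
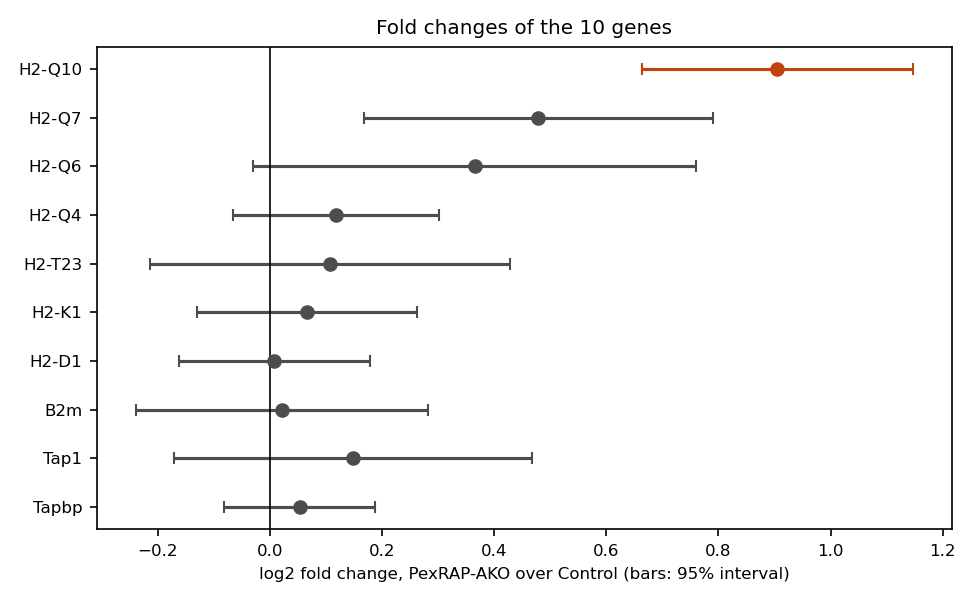
Log2 fold change of PexRAP-AKO over Control for each of the 10 genes (points) with bars for the 95% interval (normal, from the SE), from edgeR. H2-Q10 sits at 0.91, and the other 9 genes lie between 0.01 and 0.48.

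All 10 log2 fold changes were positive, with a median of 0.11, against a median of 0.00 over all genes tested, of which 49.8% were positive. The count of 10 did not hold under every alternative. Leaving out PexRAP-AKO replicate 3 gave 6, and leaving out Control replicate 7 gave 8. Leaving out PexRAP-AKO replicate 1, or any one of Control replicates 3, 5 and 8, gave 9. It was also 6 with total counts, 9 with upper-quartile scaling, 9 with no filter and 8 with the replicate block. PexRAP-AKO replicate 3 was the highest of the 10 libraries for each of the 9 genes other than H2-Q10, and for H2-Q10 it ranked 3. Without it 5 of the 9 other genes were positive and 4 negative (H2-K1, H2-D1, H2-T23 and B2m), with a median of 0.01, while H2-Q10 stood at 0.93. With total counts as the scaling 4 of the 9 were also negative (H2-K1, H2-D1, B2m and Tapbp). That scaling moved the median of all genes to -0.07. None of the 9 passed the threshold by edgeR, DESeq2 or limma voom, and 1 of them, H2-Q7, had an unadjusted p under 0.05 by each tool.

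Summed over the 7 heavy chain genes, the level was 2547 ± 228 CPM in PexRAP-AKO and 2404 ± 184 CPM in Control (SD, n = 5 each), a ratio of 1.06. The difference was 142.8 CPM, and 19.1 CPM with total counts. Leaving out PexRAP-AKO replicate 3 gave 52.4 CPM, and leaving out Control replicate 7 gave 71.1 CPM. Over all 24 counted H2 heavy chains, which takes in reads assigned to relatives outside the 7, the sum was 2672 ± 236 CPM in PexRAP-AKO and 2518 ± 188.5 CPM in Control. Without H2-Q10 the other 6 summed to 2409 ± 232 CPM in PexRAP-AKO and 2331 ± 176 CPM in Control, and the groups overlapped. Over the 4 Q-region genes H2-Q4, H2-Q6, H2-Q7 and H2-Q10 the sum was 255.8 ± 16.3 CPM in PexRAP-AKO and 172.0 ± 22.6 CPM in Control, a ratio of 1.49. The Q-region sums did not overlap, at 234.6 to 275.8 CPM in PexRAP-AKO and 139.9 to 198.9 CPM in Control. Leaving H2-Q10 out, the Q-region sums were 97.6 to 147.5 CPM in PexRAP-AKO and 77.8 to 111.7 CPM in Control, which overlapped.

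H2-Q10 made up 4.86, 6.79, 4.41, 5.99 and 5.35% of the 7 heavy chain genes in PexRAP-AKO replicates 1, 2, 3, 5 and 6, and 2.47, 3.44, 3.33, 2.93 and 3.15% in Control replicates 2, 3, 5, 7 and 8. The lowest share in PexRAP-AKO was above the highest share in Control. Within the 4 Q-region genes it was 46.5 to 63.4% in PexRAP-AKO and 35.5 to 45.9% in Control. The ratio of H2-Q10 to H2-K1, which does not depend on scaling, was 0.128 ± 0.0246 in PexRAP-AKO and 0.0704 ± 0.00834 in Control (SD, n = 5 each). The ratio of H2-K1 to H2-D1 was 0.965 ± 0.0745 in PexRAP-AKO and 0.926 ± 0.0439 in Control. The H2-K1 to H2-D1 ratio, which overlapped between the groups, does not hold H2-Q10, whereas the shares and the ratio to H2-K1 do and describe the same difference as its level.

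**Figure D4:**
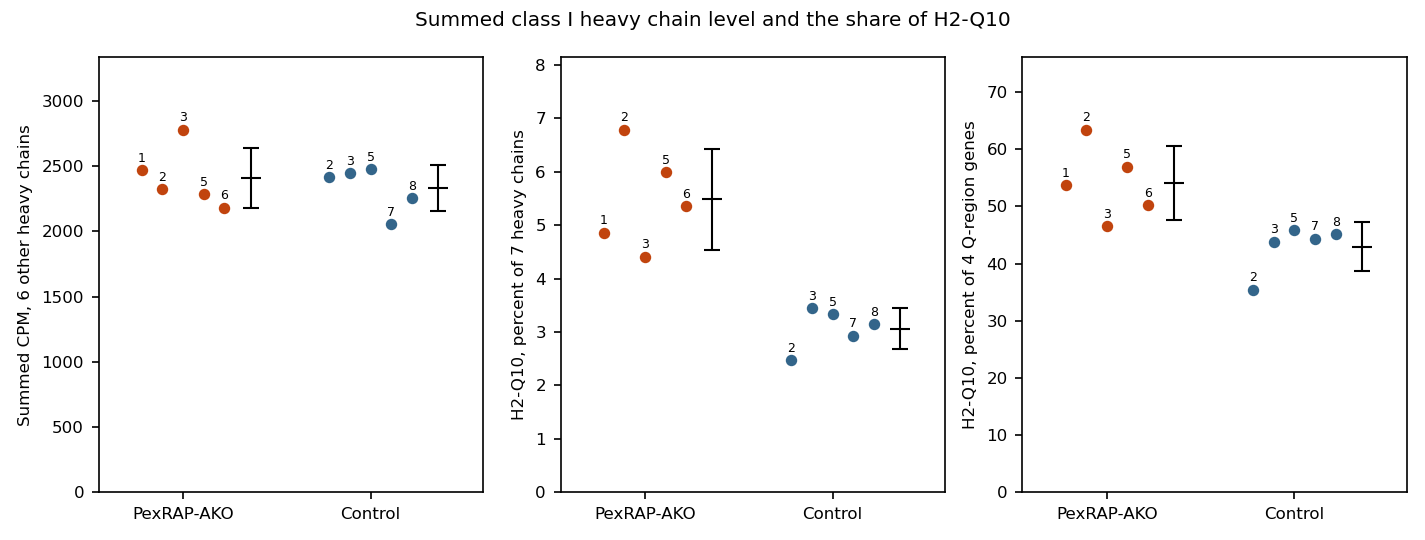
Summed CPM of the 6 heavy chain genes other than H2-Q10 (left), and H2-Q10 as a percent of the 7 heavy chain genes (middle) and of the 4 Q-region genes (right), in PexRAP-AKO (orange) and Control (blue) libraries labelled by replicate number. Black bars are the mean and SD (n = 5). The left panel overlaps between the groups, while the share of the 7 heavy chains is 4.41 to 6.79% in PexRAP-AKO and 2.47 to 3.44% in Control.

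Per kilobase of coding transcript, so that genes can be set side by side, B2m had the highest level, at 1625 ± 265 CPM per kb in PexRAP-AKO and 1601 ± 236 CPM per kb in Control (SD, n = 5 each). H2-K1 followed at 633 CPM per kb in PexRAP-AKO and 605 CPM per kb in Control, then H2-D1 at 503 CPM per kb in PexRAP-AKO and 501 CPM per kb in Control. Tapbp came next, at 79.8 ± 5.56 CPM per kb in PexRAP-AKO and 76.9 ± 4.49 CPM per kb in Control. In PexRAP-AKO H2-Q10 ranked next, at 69.6 ± 9.68 CPM per kb, above H2-T23 at 40.7 ± 11.1 CPM per kb. In Control H2-Q10 (37.1 ± 6.21 CPM per kb) and H2-T23 (37.8 ± 4.83 CPM per kb) differed by less than their spread. H2-Q4, Tap1, H2-Q6 and H2-Q7 followed in both groups, the last 2 at 16.02 and 15.83 CPM per kb in PexRAP-AKO and 12.4 and 11.3 CPM per kb in Control, a difference which again is less than their spread. With all annotated exons as the length, H2-Q10 stood at 31.9 CPM per kb in PexRAP-AKO and 17.0 CPM per kb in Control. On that length its rank was the same in PexRAP-AKO, while in Control it fell below H2-Q4 (21.1 CPM per kb) and H2-T23 (19.3 CPM per kb). The order of the classical chains also turned, with H2-D1 at 440 CPM per kb in PexRAP-AKO and 438 CPM per kb in Control, and H2-K1 at 373.0 CPM per kb in PexRAP-AKO and 356 CPM per kb in Control.

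Beyond the 10 genes, 100 tested genes of the class I pathway and its surroundings were listed by role. None passed the threshold in edgeR, where 15 had an unadjusted p under 0.05 (15.5% of all genes had one). Of these 15, 13 were higher in PexRAP-AKO and 2 lower, against 9.01% and 6.44% of all genes. Limma voom called none of the 100. DESeq2 called 439 of all 14913 genes, 309 of them higher in PexRAP-AKO. Of the 100 it called 4, all higher in PexRAP-AKO, namely Mr1, Psme1, Psme2 and Psmb7.

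Of 7 other H2 heavy chains that were tested, among 17 counted, 0 passed. All 7 log2 fold changes were positive, against 49.8% of all genes, with a median of 0.22. H2-M3, which presents formylated peptides, stood at 14.7 ± 2.73 CPM in PexRAP-AKO and 12.3 ± 1.74 CPM in Control (SD, n = 5 each; log2 fold change 0.26, edgeR adjusted p = 0.405). The log2 fold changes of H2-T10 and H2-T24 were 0.33 and 0.31 (edgeR adjusted p = 0.441 and 0.470). Among 9 class I-like genes outside these clusters 4 were positive, and the median was -0.07. Mr1, which presents vitamin B metabolites to MAIT cells, came closest to the threshold, at 41.8 ± 3.34 CPM in PexRAP-AKO and 31.5 ± 2.20 CPM in Control (log2 fold change 0.41, SE 0.07, edgeR adjusted p = 0.0657). The log2 fold changes of H60b, which encodes an NKG2D ligand, and of Mill2 were 0.79 and -0.18 (edgeR adjusted p = 0.383 and 0.438).

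Of 12 genes that supply and load peptides 0 passed the threshold. Of these, 8 were positive and 4 negative, and the median log2 fold change was 0.03. The translocon subunit genes Sec61b and Sec61a1 stood at 0.29 and 0.11 (edgeR adjusted p = 0.252 and 0.437), and the peptidase gene Lnpep at -0.20 (edgeR adjusted p = 0.291). Of all genes tested, 49.8% were positive and 9.01% were higher with an unadjusted edgeR p under 0.05. The 6 immunoproteasome and activator genes were all positive (median 0.21), 3 had an unadjusted p under 0.05, and 0 passed the threshold. The lowest p was that of Psme2, a subunit of the PA28 activator, at 44.2 ± 3.06 CPM in PexRAP-AKO and 34.3 ± 3.51 CPM in Control (log2 fold change 0.36, SE 0.08, edgeR adjusted p = 0.0972). Its partner Psme1 stood at 79.3 ± 5.03 CPM in PexRAP-AKO and 66.7 ± 3.75 CPM in Control (log2 fold change 0.25, edgeR adjusted p = 0.123), and Psmb10 had a log2 fold change of 0.21 (edgeR adjusted p = 0.309). The 3 constitutive catalytic subunits, which interferon-induced subunits replace, were positive too (median 0.33), each with an unadjusted p under 0.05, and 0 passed the threshold. Psmb7 stood at 133.4 ± 10.9 CPM in PexRAP-AKO and 106.3 ± 9.32 CPM in Control (edgeR adjusted p = 0.112), while Psmb5 and Psmb6 had log2 fold changes of 0.41 and 0.18 (edgeR adjusted p = 0.204 and 0.283).

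Among 16 transcription regulators of class I genes 0 passed, with a median log2 fold change of 0.03. Nlrc5, the class I transactivator, stood at 90.4 ± 12.5 CPM in PexRAP-AKO and 91.4 ± 16.4 CPM in Control (SD, n = 5 each; log2 fold change -0.01, edgeR adjusted p = 0.970). It is named here after its values were seen. The 2 with the smallest p were Rfxap, a subunit of the RFX complex, at -0.28 (edgeR adjusted p = 0.185), and Nfyc, a subunit of the CCAAT-binding factor, at 0.21 (edgeR adjusted p = 0.306). Of 12 genes of interferon gamma signalling 0 passed and 0 had an unadjusted p under 0.05, with a median log2 fold change of 0.04. Those with the smallest p were Cxcl10 at -0.18, Ifngr1 at -0.13 and Irgm1 at 0.22, with edgeR adjusted p of 0.463, 0.532 and 0.648. Over 20 type I interferon response genes 19 were positive, against 49.8% of all genes (median log2 fold change 0.25). An unadjusted edgeR p under 0.05 was reached by 2 of the 20, against 15.5% of all genes. None passed the threshold (lowest edgeR adjusted p = 0.265, Mx1). The summed level of the 20 was highest in PexRAP-AKO replicate 3, at 765.5 CPM. It was 430.4 CPM in the lowest PexRAP-AKO library and 438.4 to 532.4 CPM in Control.

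**Figure D5:**
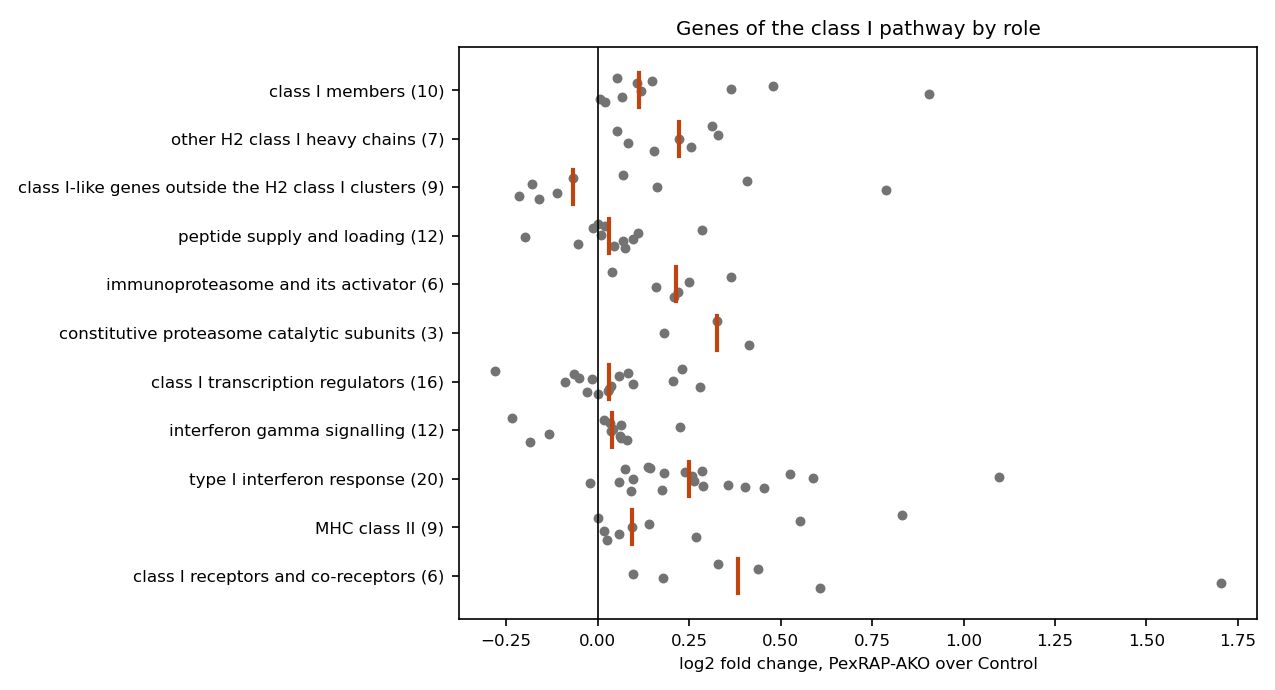
Log2 fold change of PexRAP-AKO over Control (x axis) for the tested genes of the class I pathway by role, 1 row a list with its number of genes, 1 point a gene and an orange line at the median. Medians run from -0.07 for class I-like genes to 0.38 for class I receptors, and the farthest gene among the receptors is Cd8a at 1.70, which is 0.35 without PexRAP-AKO replicate 6.

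The MHC class II genes and the receptors of class I molecules were set beside these. All 9 tested class II genes were positive by edgeR, against 49.8% of all genes, and 7 were positive by limma voom. By edgeR the median log2 fold change was 0.09, with 0 past the threshold and 0 with an unadjusted p under 0.05. Summed class II levels ran from 782.2 to 1599 CPM in PexRAP-AKO, the highest in replicate 3, and from 855.9 to 1254 CPM in Control. Of the class I receptors and co-receptors 6 were tested (median 0.38). An unadjusted edgeR p under 0.05 was reached by 2 of them, against 15.5% of all genes, and 0 passed the threshold. The CD8 chain gene Cd8a had a log2 fold change of 1.70 (edgeR adjusted p = 0.315). It was at 16.2 CPM in PexRAP-AKO replicate 6, at 0.845 to 2.59 CPM in the other PexRAP-AKO libraries and at 0.964 to 2.17 CPM in Control. Without PexRAP-AKO replicate 6, a leave-one-out fit picked for Cd8a after its values were seen, the log2 fold change of Cd8a was 0.35 (edgeR adjusted p = 0.663). Cd160 stood at 0.61 (edgeR adjusted p = 0.260) and the NKG2D gene Klrk1 at 0.44 (edgeR adjusted p = 0.554). Summed T cell markers, of which 11 of 12 were tested, ran from 19.4 to 153.6 CPM in PexRAP-AKO, the highest in replicate 6, and from 16.8 to 27.8 CPM in Control. Summed B cell markers (6 of 8 tested) ran from 5.72 to 115.5 CPM in PexRAP-AKO, the highest again in replicate 6, and from 3.22 to 55.3 CPM in Control, the highest in replicate 8. After each group's mean was taken off, the T cell sum had a Pearson r of -0.32 with H2-Q10 and -0.20 with H2-K1 (exact permutation p = 0.329 and 0.544). The B cell sum had an r of -0.37 with H2-Q10 and -0.24 with H2-K1 (exact permutation p = 0.337 and 0.497). Beyond these relations, the part of these cells in the class I levels was not tested.

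The liver is the known main source of H2-Q10, so hepatocyte transcripts were examined beside it. All 12 hepatocyte markers listed were detected and tested, 8 had a positive log2 fold change, and 0 passed the threshold or had an unadjusted p under 0.05 by edgeR, DESeq2 or limma voom. DESeq2 gave no adjusted p for some of the 12, so those could not pass by DESeq2. The summed level of the 12 was 152.9 to 197.7 CPM in PexRAP-AKO and 147.1 to 186.6 CPM in Control, which overlapped. Albumin made up most of it, at 127.4 ± 14.1 CPM in PexRAP-AKO and 120.7 ± 13.0 CPM in Control (SD, n = 5 each). Their log2 fold changes ran from -0.10 to 0.25. The part of liver transcripts in the H2-Q10 difference was not tested. All 8 endothelial markers had a negative log2 fold change (median -0.21), while 49.8% of all genes were positive. Of the 8, 3 had an unadjusted p under 0.05, where 6.44% of all genes were lower with such a p by edgeR. None of the 8 passed the threshold by edgeR, DESeq2 or limma voom. Their summed level was 585.7 to 835.6 CPM in PexRAP-AKO and 830.9 to 987.8 CPM in Control. After each group's mean was taken off, the endothelial sum and H2-Q10 had a Pearson r of 0.24 (exact permutation p = 0.490). Their Spearman rho was -0.15 (exact permutation p = 0.735). Beyond this relation, the part of endothelial cells in the H2-Q10 difference was not tested. Macrophage markers summed to 744.1 to 2126 CPM in PexRAP-AKO and 874.0 to 1740 CPM in Control. Progenitor markers summed to 1989 to 4543 CPM in PexRAP-AKO and 2239 to 3280 CPM in Control, dendritic cell markers to 57.7 to 98.2 CPM in PexRAP-AKO and 61.2 to 75.2 CPM in Control. NK cell markers ran from 5.42 to 27.4 CPM in PexRAP-AKO and from 5.04 to 11.95 CPM in Control, and lymph node stroma markers from 8.84 to 49.5 CPM in PexRAP-AKO and from 8.36 to 32.9 CPM in Control, with Ccl21a and Pdpn listed at 0 in every library. Each of these symbols stood under separate identifiers, all at 0, and the zeros do not show that the genes were absent from the tissue.

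None of the tested genes around H2-Q10 on chromosome 17 passed the test. Of 96 counted genes that start within 500 kb of it, 45 were tested, 30 with a positive and 15 with a negative log2 fold change, and a median of 0.03. By edgeR, DESeq2 and limma voom 0 of the 45 passed the threshold. An unadjusted edgeR p under 0.05 was found for 3 of them (6.67%, against 15.5% of all genes), all higher in PexRAP-AKO: H2-Q7, the mitochondrial ribosomal protein gene Mrps18b and the cytokine gene Tnf. DESeq2 gave no adjusted p for some of the 45, Tnf among them, so those genes could not pass by DESeq2. Mrps18b had a log2 fold change of 0.34 (edgeR adjusted p = 0.244) and Tnf, at 1.45 ± 0.659 CPM in PexRAP-AKO and 0.750 ± 0.207 CPM in Control, one of 0.93 (edgeR adjusted p = 0.244). The next 2 were Lsm2 at 0.22 and 2310061I04Rik at 0.27 (edgeR adjusted p = 0.329 and 0.363).

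The variation of H2-Q10 within groups was set beside that of the classical genes. After each group's mean was taken off, H2-Q10 and H2-K1 had a Pearson r of 0.24 (exact permutation p = 0.516) and a Spearman rho of 0.35 (exact permutation p = 0.380) over the 10 libraries. Without the 2 libraries farthest from the median in H2-K1 r was 0.33. H2-D1 and H2-K1 had an r of 0.78 (exact permutation p = 0.00646) and a rho of 0.80 (exact permutation p = 0.0192), and without the 2 farthest libraries r was 0.58. Over the 9 other genes, r with H2-Q10 ran from -0.61 for Tap1 to 0.24 for H2-K1. In all 33 relations were computed, and none passed Benjamini-Hochberg adjustment, the lowest adjusted p being 0.197 for r and 0.555 for rho (exact permutation tests).

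The summed macrophage markers and H2-K1 had an r of 0.75 (exact permutation p = 0.0179) and a rho of 0.55 (exact permutation p = 0.145). Without the 2 farthest libraries, PexRAP-AKO replicate 3 being the highest in macrophage transcripts, r was 0.21, so the size of r depended on those libraries. No test was run on the libraries that remained. With H2-Q10 the macrophage sum had an r of 0.12 (exact permutation p = 0.735). The summed interferon gamma genes and H2-Q10 had an r of -0.66 (exact permutation p = 0.0564) and a rho of -0.75 (exact permutation p = 0.0336), neither of which passed adjustment. Without the 2 farthest libraries r was -0.63.

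Among 13038 genes searched, those whose within-group pattern was most like that of H2-Q10 over the 10 libraries were Plxnd1 (Pearson r = 0.98), Fabp5 (0.97), Alg5 (0.95), Dgat2 (0.94) and Ptges (0.93). Of these Plxnd1 encodes a semaphorin receptor, Fabp5 a fatty acid binding protein and Dgat2 an enzyme of triglyceride synthesis. For H2-K1 they were Rsad2 (0.95), Clec7a (0.95), Chp2 (0.95), Wsb1 (0.94) and Clec12a (0.94), where Rsad2 encodes the antiviral protein viperin and Clec7a and Clec12a are lectin receptors of myeloid cells. No gene stood in both sets of 5. These r are the highest of a search and are given as a description, with no test.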

How the data were processed

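Total RNA of inguinal fat from 10 samples was sequenced, 1 library per labelled sample, in 2 groups of 5. Per the submitters' processing notes, STAR 2.0.4b, Subread, featureCounts and edgeR were used. The authors deposited raw counts per gene. The sources used here give no genome build, annotation, strand or read length, so reads of overlapping antisense genes cannot be told apart. The table had 40724 rows for 40501 identifiers. Repeated rows of 117 identifiers held the same counts, and a single row was used for each. Coordinates and lengths came from GENCODE M21 (GRCm38), which held 99.6% of the identifiers.

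From the deposited counts, CPM was computed with TMM scaling. Genes were filtered with filterByExpr (minimum count 10, minimum total 15) and tested with edgeR 4.0.16 under R 4.3.3 (quasi-likelihood F test, robust, no covariate, Benjamini-Hochberg threshold 0.05 over 14913 genes). SE is the log2 fold change over the square root of F. Log2 CPM for relations had a prior count of 2. Relations used exact permutation within groups. Alternatives were other scalings, no filter, DESeq2 1.42.0, limma 3.58.1 voom, the replicate block and leaving out libraries. DESeq2 left some tested genes without an adjusted p, and these were counted as not passing. Counts of 10 libraries limit the precision to the spread between them. The code was tested on simulated data. No pair of libraries within a group agreed within sampling noise.

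The 10 genes, the gene lists and the motifs were chosen with earlier results of these data known. The text names the 10 genes, Dhrs7b, up to 3 genes of each list by smallest p, the 5 neighbours of H2-Q10 with the smallest p and the 5 genes most like H2-Q10 and H2-K1 among those averaging 1 CPM or more without a predicted name. Other genes were chosen after their values were seen. One gene that this rule names is not reported here. H2-Q8, H2-Q9, H2-T9, H2-L and H2-Ea were not analysed here.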

Additional observations from a re-analysis of the deposited data

Results flagged for a closer look

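Among 52 groups of 5 values examined, 3 held a library far from the other 4, where chance gives about 1 in 20 groups (2.6). In PexRAP-AKO, H2-K1 was highest in replicate 3, at 1313 CPM, with the next library at 1081 CPM. In Control, Tap1 was highest in replicate 2, at 78.7 CPM, with the next library at 54.98 CPM. The share of H2-Q10 among the 4 Q-region genes was lowest in Control replicate 2, at 35.5%, with the next Control library at 43.9%.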

How the results depend on the processing

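H2-Q10 was higher in PexRAP-AKO under all 18 alternatives (log2 fold change 0.82 to 0.97) and passed the threshold under 12. The 6 losses were the 4 single libraries named above, the pair of B cell-rich libraries (0.94, edgeR adjusted p = 0.104) and the replicate block. The block was fitted on the libraries whose numbers occur in both groups (0.92, edgeR adjusted p = 0.227). Same-numbered libraries did not all deviate together (correlations -0.02, -0.08 and 0.36), and the numbers were not read as pairing. DESeq2 gave H2-Q10 an adjusted p of 7.35e-09. The count of 15 genes past the threshold was 26 with no filter, 439 with DESeq2 and 3 with the replicate block. It was 5 without both B cell-rich libraries and 3 to 58 over the leave-one-out fits. Each fit that lost the call of H2-Q10 had fewer libraries, while other fits that left out 1 library kept it. The causes of the losses and of the DESeq2 count were not tested.

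None of the other 9 genes was called in any of 162 values over the alternatives, and 18 of these turned the sign. With total counts the log2 fold change was -0.00634 for H2-K1, -0.0649 for H2-D1, -0.0510 for B2m and -0.0188 for Tapbp. H2-D1 was at -0.00698 with upper-quartile scaling and -0.00310 with no filter. The replicate block gave -0.0457 for H2-D1 and -0.0499 for Tap1. The fits that left out 1 library, or both B cell-rich ones, ran from -0.00738 to 0.105 for H2-K1 and from -0.0266 to 0.0455 for H2-D1. They ran from -0.0694 to 0.200 for H2-T23 and from -0.0738 to 0.158 for B2m. They ran from 0.0537 to 0.172 for H2-Q4, from 0.207 to 0.459 for H2-Q6, from 0.361 to 0.571 for H2-Q7, from 0.0566 to 0.283 for Tap1 and from 0.0150 to 0.0851 for Tapbp. The replicate block gave 0.167 for H2-Q6 and 0.00766 for H2-Q4. The summed difference of the 7 heavy chain genes ran from 52.4 to 202.9 CPM over these fits.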
